A study of Mus musculus with 768 samples.

Results

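The clustered protocadherins are cell-surface adhesion proteins encoded by 3 neighbouring gene clusters, named alpha, beta and gamma. In the alpha and gamma clusters each gene has its own variable first exon, with its own promoter, that is spliced to constant exons shared by the whole cluster. Each beta gene has a variable exon alone. The clusters are best known from neurons, where a cell switches on a few promoters out of many and carries a surface identity of its own, while the C-type genes at the ends of the alpha and gamma clusters are used more widely. Of 25700 genes in the counts, 58 had a symbol beginning with Pcdha, Pcdhb or Pcdhg and were taken as the members, namely 14 alpha, 22 beta and 22 gamma genes.

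The libraries were made by Smart-Seq2 from single Schwann cells (SCs), which ensheathe or myelinate peripheral axons, of the sciatic nerves of mice at postnatal day 60. All mice carried 1 genotype, with Cre expressed in the SC lineage, a Cre-dependent eYFP reporter (ReYFP Tg) and a dsRed reporter under the beta actin promoter (βAct-DsRed Tg), so a cell was sorted as an SC because it or a precursor had expressed Cre. Males and females were pooled on each of 2 plates of 384 wells, each from other animals, and the plates are the 2 replicates. There was no treatment and no other genotype. A cell was kept when at least 1500 genes were detected in it, which left 340 cells on plate 1 with a median of 158689 reads and 334 cells on plate 2 with a median of 452483 reads. These cells were clustered without the members and their neighbours, and 4 cell clusters were called myelinating (mSC-like) or non-myelinating, Remak (nm(R)SC-like) from marker genes. The classes held 147 mSC-like and 193 nm(R)SC-like cells on plate 1 and 79 and 255 on plate 2. Both classes held the markers that named them: the 11 mSC-like markers (such as Prx and Mag) summed to 66923 to 72522 CPM (reads of a gene scaled to a common total for each sum) in the mSC-like class and to 6532 to 7484 CPM in the other. The 9 nm(R)SC-like markers (such as Scn7a and Cdh2) summed to 2697 to 3422 CPM in their own class and to 180.1 to 361.3 CPM among mSC-like cells. These classes were made anew from the counts, so single cells may be placed otherwise than in the study.

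All 58 genes lie on the + strand of chr18 between 36930184 and 37841873 in the mouse build GRCm38, with the alpha genes first and the gamma genes last. The counting decided what each row of the table can say. A group of 13 alpha genes had the same count in every cell, 1058 reads in 33 of 768 cells, because a read in the constant exons (2860 bases shared by the cluster) had been counted for each gene. None of these 13 genes had a single read of its own, and only Pcdhac2 (chr18:37143503-37187657), the last C-type gene of the alpha cluster, did, with 424 own reads in 13 cells. The 22 gamma genes shared 19175 reads in 233 cells, which fell on the constant exons (2116 shared bases), and had 10714 further reads above this common value. Beta genes share no exon as a cluster and had 9948 reads in 146 cells. With the constant exons counted once, all members held 41319 reads, 0.0146% of the table. Reads where exons of neighbouring members overlap, as for Pcdhb21 and Pcdhb22, may still be counted for both. Per kilobase of exon the constant exons of gamma held 9062 reads and those of alpha 369.9 reads over all cells, while the gamma gene with the most own reads per kilobase, Pcdhga12, held 633.2 and the beta gene with the most, Pcdhb9, held 455.3. Constant exons take reads from transcripts of every gene of their cluster, so they are not like for like with a single gene. In what follows the alpha and the gamma cluster each have 1 value per cell, the median over their genes, which is the constant-exon value. Reads that a gene had above the lowest gene of its cluster in a cell are called gene-specific.

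To compare cells of unequal depth, each kept cell was thinned to 100000 reads, which left out 45 mSC-like and 73 nm(R)SC-like cells on plate 1 and 3 and 18 on plate 2 as too shallow. A cell was said to have a cluster when 5 or more of the thinned reads fell on it. Intervals in parentheses are exact 95% Clopper-Pearson intervals over the cells of a plate. They cover the counting error of cells alone and leave out the spread between plates and animals. With 2 plates no test of a share was made.

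Over all thinned cells of each plate, gamma was the cluster found in the largest share (29.3% on plate 1 and 13.7% on plate 2). On plate 1 it was present in 24 of 102 mSC-like cells (23.5%, 15.7 to 33.0%) and in 41 of 120 nm(R)SC-like cells (34.2%, 25.8 to 43.4%). On plate 2 it was present in 4 of 76 mSC-like cells (5.26%, 1.45 to 12.9%) and in 39 of 237 nm(R)SC-like cells (16.5%, 11.97 to 21.8%). The share was thus higher in the nm(R)SC-like class on both plates, and higher on plate 1 than on plate 2 in both classes. Over the 2 plates the share was 14.4% ± 12.9 (SD, n = 2) in mSC-like and 25.3% ± 12.5 in nm(R)SC-like cells, and the intervals of the classes overlapped on each plate. Within a plate the nm(R)SC-like share was higher by 10.6 percentage points on plate 1 and by 11.2 on plate 2, so the levels of the plates differed while the distance between the classes was of like size on both. In the cells that had it, the gamma value ran from 5 reads through a median of 23 to 139 reads on plate 1, and from 5 through 32 to 233 on plate 2.

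The alpha cluster was rare and was found in nm(R)SC-like cells. On plate 1 it was present in 9 of 120 nm(R)SC-like cells (7.50%, 3.49 to 13.8%) and in 0 of 102 mSC-like cells, which allows a share of up to 2.94% by 3 cells of the total (exact interval 0 to 3.55%). On plate 2 it was present in 4 of 237 nm(R)SC-like cells (1.69%, 0.462 to 4.26%) and in 0 of 76 mSC-like cells, which allows a share of up to 3.95% by 3 cells (exact interval 0 to 4.74%). The exact intervals of the classes overlapped slightly on plate 1 and widely on plate 2. The thinning hid 1 case, because an mSC-like cell of plate 1 that was too shallow to be thinned had 59 alpha reads. Without thinning, 18 kept cells had 5 or more alpha reads, and 17 of them were nm(R)SC-like (12 of 13 on plate 1 and 5 of 5 on plate 2).

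Beta genes were found in more cells than alpha, and in fewer than gamma except among mSC-like cells of plate 2. On plate 1 at least 1 beta gene reached 5 reads in 12 of 102 mSC-like cells (11.8%, 6.23 to 19.6%) and in 22 of 120 nm(R)SC-like cells (18.3%, 11.9 to 26.4%). On plate 2 this was so in 6 of 76 mSC-like cells (7.89%, 2.95 to 16.4%) and in 19 of 237 nm(R)SC-like cells (8.02%, 4.90 to 12.2%). The classes were nearly level on plate 2, and their intervals overlapped on both plates. The gamma value leaves out gene-specific reads. With the highest gamma gene of a cell in its place, gamma was present in 29.4% of mSC-like and 42.5% of nm(R)SC-like cells on plate 1. On plate 2 it was then present in 11.8 and 21.1%, and the exception among mSC-like cells was gone. With constant-exon values for alpha and gamma, 84 of 222 cells on plate 1 (37.8%) and 70 of 313 cells on plate 2 (22.4%) had any cluster. By this measure most SCs had none of the 3 clusters at this depth.

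**Figure D1:**
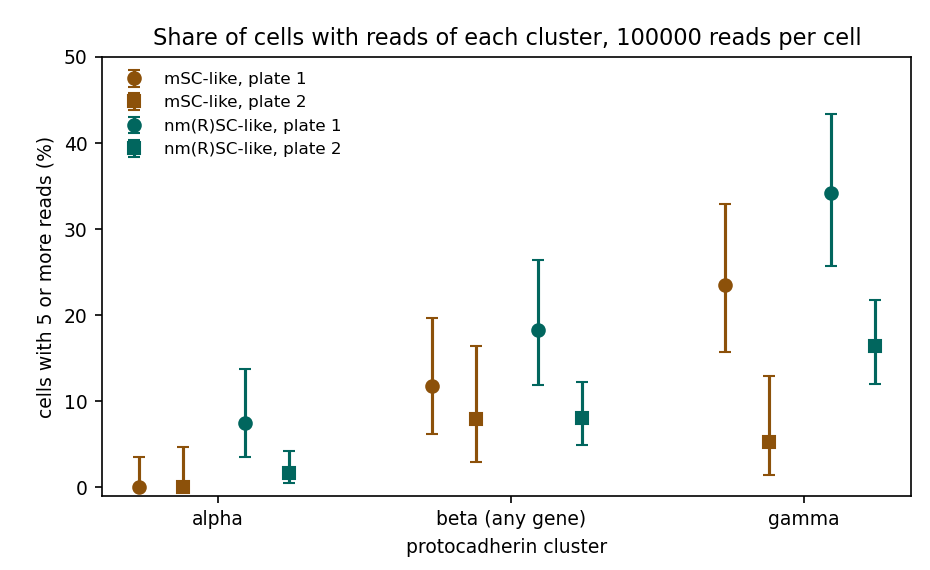
Share of thinned cells (y axis, percent) with 5 or more of 100000 reads of the alpha, beta or gamma cluster (x axis), for mSC-like cells (brown) and nm(R)SC-like cells (green) on plate 1 (circles) and plate 2 (squares), with exact 95% binomial intervals. Gamma reached 34.2% of nm(R)SC-like cells on plate 1, and alpha was at 0 in the mSC-like class on both plates.

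By cell cluster, gamma ranged from 11.1 to 38.0% of cells on plate 1. In the mSC-like class, gamma was present in 19 of 57 cells of the cluster led by Mfap5 and Ogn (33.3%, 21.4 to 47.1%) and in 5 of 45 cells of the cluster led by Emid1 and Cuedc2 (11.1%, 3.71 to 24.1%). On plate 2 the same clusters had 1 of 20 and 3 of 56 cells, and the intervals of the clusters overlapped on both plates. In the nm(R)SC-like class, the cluster led by Apoe and Entpd2 had gamma in 30 of 79 cells (38.0%) on plate 1 and 34 of 206 (16.5%) on plate 2, and the cluster led by Ednrb and Id2 had it in 11 of 41 (26.8%) and 5 of 31 (16.1%). The alpha cells came from both nm(R)SC-like clusters, with 5 and 4 cells on plate 1 and 2 and 2 on plate 2.

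Summed over the cells of a class, the levels rested on few cells. For gamma the mSC-like class was at 78.1 CPM and the nm(R)SC-like class at 89.0 CPM on plate 1. On plate 2 they were at 32.7 and 73.6 CPM. Of the mSC-like gamma reads of plate 2, 85.2% came from 1 cell, and without it the level was 4.84 CPM. The alpha value was 14.7 CPM in nm(R)SC-like against 1.94 CPM in mSC-like cells on plate 1, where 1 cell held 95.2% of the mSC-like reads. On plate 2 the alpha value was 2.52 CPM (376 reads) in the nm(R)SC-like class against 0 reads in the mSC-like class, where 3 reads would have been 0.0506 CPM. The summed beta genes were at 31.9 CPM (mSC-like) and 39.3 CPM (nm(R)SC-like) on plate 1 and at 31.8 and 35.7 CPM on plate 2. Each of the 3 values was lower in mSC-like cells on both plates. The gene-specific gamma reads, which the gamma value leaves out, did not share this direction, but showed no firm one of their own. They were nearly level on plate 1, at 39.1 CPM (mSC-like) and 38.2 CPM (nm(R)SC-like), and at 44.5 and 34.9 CPM on plate 2. Of the mSC-like ones of plate 2, 86.6% came from 1 cell, and without it the level was 5.94 CPM. The nm(R)SC-like level of plate 2 without its own highest cell was 28.0 CPM. Without the highest cell of each class and plate, the beta level of plate 2 was 10.99 CPM for the mSC-like and 28.4 CPM for the nm(R)SC-like class.

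**Figure D2:**
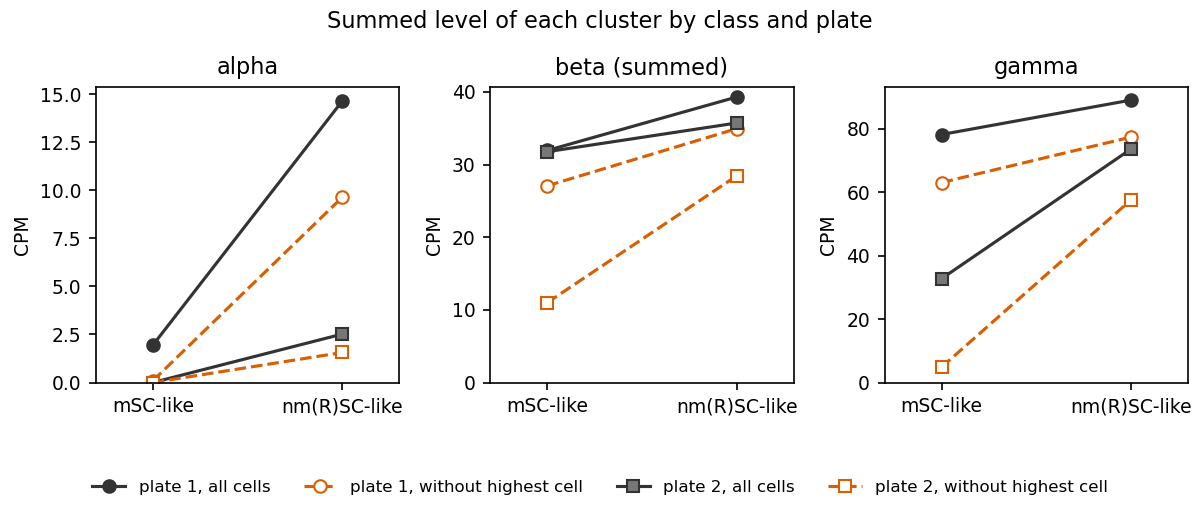
Level of the alpha, beta (summed over genes) and gamma clusters in CPM (y axes from 0) in the summed mSC-like and nm(R)SC-like cells (x axis) of plate 1 (circles) and plate 2 (squares). Filled symbols and solid lines include all kept cells and open symbols and dashed lines leave out the highest cell of each class and plate, which lowers the mSC-like gamma level of plate 2 from 32.7 to 4.84 CPM.

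Whether these levels differed between the classes beyond the spread of the plates was tested with edgeR on counts summed per plate and class, with plate as a block. Of the 58 members 39 rows passed the filter on low counts, namely 1 row for the 13 identical alpha genes, Pcdhac2, 15 of the 22 beta genes and all 22 gamma genes, whose rows share most of their reads. None was called at an adjusted p under 0.05, and none had an unadjusted p under 0.05. Over all 13259 genes tested 2.35% were called, 1.18% as higher in mSC-like cells and 1.18% as higher in nm(R)SC-like cells. The log2 ratio of mSC-like over nm(R)SC-like was -0.52 ± 0.53 (SE) for gamma (adjusted p = 0.826) and -0.07 ± 0.70 for summed beta (adjusted p = 0.994). For alpha it was -5.28 ± 3.07 (adjusted p = 0.583), a size that depends on the prior count because 1 of the 4 sums was 0. DESeq2 on the same sums called 12.5% of all genes tested. Of the members it called 1 row, Pcdhac2, with a log2 ratio of -5.96 ± 1.92 (adjusted p = 0.0197). It had 5 member rows at an unadjusted p under 0.05. The share of all genes at that unadjusted p was not counted for either method, so these counts stand without a background. In edgeR Pcdhac2, whose row includes the constant exons, had a log2 ratio of -5.73 ± 3.12 (adjusted p = 0.538). Its own reads numbered 75 on plate 1 and 348 on plate 2 among nm(R)SC-like cells against 1 and 0 in mSC-like cells, and 345 of the 348 came from 1 cell. Ratios of the size seen for gamma and beta could not be told from 0 in this fit.

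Most of the alpha-positive cells had reads of the SC marker Sox10. Sox10, a transcription factor that marks the SC lineage, had 5 or more reads in 10 of the 13 alpha-positive cells of plate 1 and 3 of the 5 of plate 2. The share of all kept cells with as many Sox10 reads was not counted. All 6 SC markers summed to 3754 CPM in alpha-positive nm(R)SC-like cells of plate 1, against 5686 CPM in the class. On plate 2 they summed to 5565 against 4972 CPM. The 6 neuronal markers, whose cell type is the best known user of these clusters, summed to 0.700 CPM in the alpha-positive nm(R)SC-like cells on plate 1 and to 0 CPM in those on plate 2, against 57.7 and 75.4 CPM in the whole class. Alpha-positive here means 5 or more constant-exon reads. An nm(R)SC-like cell of plate 1 with 25 own reads of Pcdhac2 and 1 constant-exon read was thus not among them. It had 1865 CPM of the neuronal markers, while another such cell, with 18 own reads and 1 constant-exon read, had 0 CPM. In nm(R)SC-like cells with 5 or more gamma reads the neuronal markers summed to 70.6 CPM on plate 1 and to 204.6 CPM on plate 2. Their part in the gamma values was not tested. The 5 cell-cycle markers summed to 532.0 CPM in alpha-positive nm(R)SC-like cells of plate 1 against 650.2 CPM in the class, and to 223.6 against 6.10 CPM on plate 2, where 1 cell of 2923 CPM held most of this. Endothelial markers were at 0 in the alpha-positive cells, and the 5 immune markers summed to 18.9 CPM in those of plate 1 and to 0 in those of plate 2. Fibroblast markers summed to 897.2 and 453.8 CPM in the alpha-positive nm(R)SC-like cells on plates 1 and 2, against 697.2 and 275.0 CPM in the class, and perineurial markers to 278.1 and 1048 CPM against 307.3 and 323.3 CPM. The part of these markers in the alpha values was not tested either.

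Most cells in which the beta cluster was detected had reads of 1 beta gene alone. Of the thinned cells with a beta gene at 5 or more reads, 28 of 34 on plate 1 (82.4%) and 25 of 25 on plate 2 (100%) had exactly 1 such gene, and 5 cells of plate 1 had 2 and 1 had 3. The mean number of beta genes was 0.185 per cell with a variance of 0.224 on plate 1, and 0.0799 with a variance of 0.0737 on plate 2. At means this low most positive cells would hold 1 gene in any case, and a choice of 1 gene per cell was not tested. By class the mean was 0.157 in mSC-like and 0.208 in nm(R)SC-like cells on plate 1, and 0.0789 and 0.0802 on plate 2. With a minimum of 1 read and no thinning, 69 of 90 cells with any beta read on plate 1 (76.7%) and 44 of 49 on plate 2 (89.8%) still had 1 gene, and the most in a cell was 4 of the 22.

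The leading gene of a cell held nearly all of its beta reads. Among unthinned kept cells with 5 or more beta reads, the leading gene held a median of 100% of them on both plates. It held all of them in 28 of 47 cells on plate 1 and in 27 of 30 cells on plate 2, and at least 90% in 39 and 30 cells. The lowest share of a leading gene was 48.4% on plate 1 and 96.4% on plate 2. Cells with reads of more than 1 beta gene were thus found on both plates, 19 on plate 1 and 3 on plate 2. Wells of plate 1 are labelled with combinations of 2 index names. To stand for reads assigned to the wrong cell, 0.1% of the reads that cells sharing an index name had for the gene was taken away. This was done for each cell of plate 1, and the rate was assumed, not measured. On plate 1 the mean number of beta genes was then 0.147 in mSC-like and 0.200 in nm(R)SC-like cells, against 0.157 and 0.208 without it. Over the 2 plates, with plate 2 unchanged, the means were 0.113 and 0.140 against 0.118 and 0.144.

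**Figure D3:**
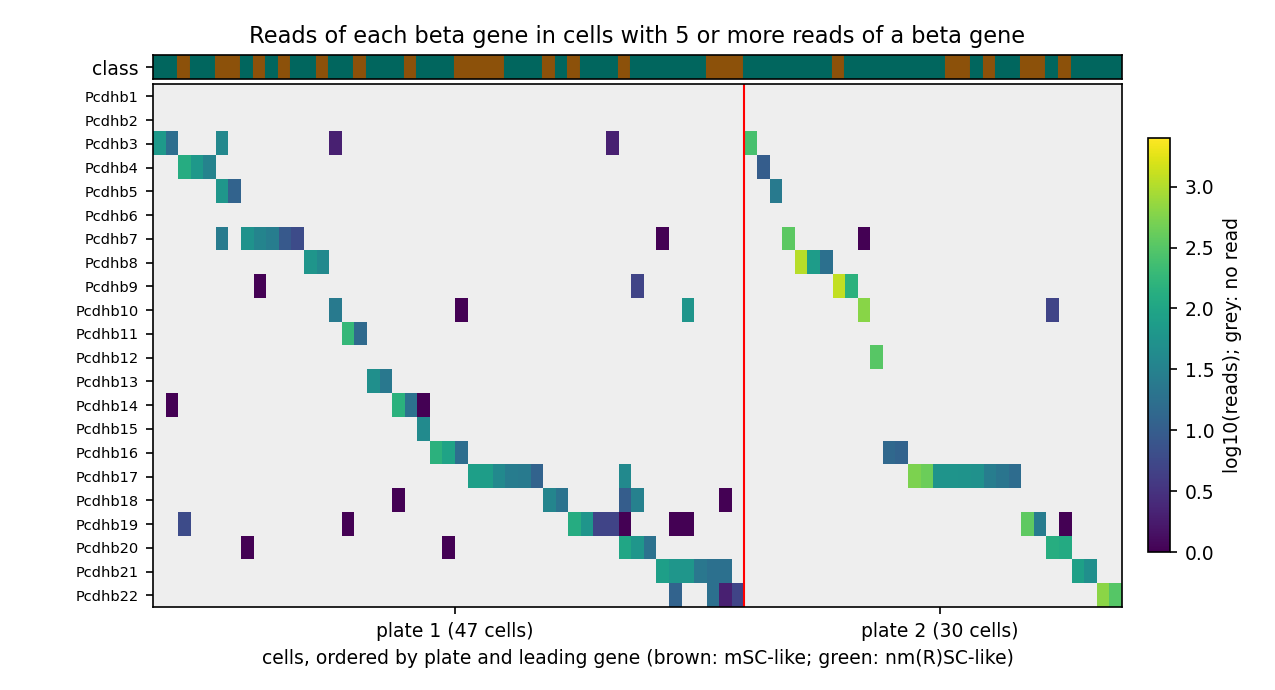
Reads of the 22 beta genes (rows, in genomic order) in the 77 kept cells that had 5 or more unthinned reads of a beta gene (columns, by plate and leading gene), on a log10 color scale with grey for no read and the class of each cell above (brown mSC-like, green nm(R)SC-like). Most columns hold 1 colored square, and the leading genes run from Pcdhb3 to Pcdhb22 with both classes among them.

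Different cells had reads of different beta genes. Of the 22 genes 19 reached 5 unthinned reads in at least 1 kept cell, and the exceptions were Pcdhb1 (0 reads in the whole table), Pcdhb2 (2 reads) and Pcdhb6 (5 reads in kept cells). The gene in the largest share of cells was Pcdhb17 (chr18:37484795-37489454), present in 7 of 222 thinned cells on plate 1 (3.15%) and 7 of 313 on plate 2 (2.24%), 4 and 2 of them mSC-like. It was also the gene with the most beta reads, 1584 in 24 cells. Pcdhb21 (chr18:37513621-37518325) followed with 5 cells on plate 1 and 2 on plate 2. Its exons overlap those of Pcdhb22, so reads of these neighbours could not be told apart there. Pcdhb7 (chr18:37341702-37345202) was present in 4 cells and 1 cell, and Pcdhb16 (chr18:37477814-37483038) and Pcdhb19 (chr18:37496991-37504128) in 3 and 2 cells each. These shares differed by few cells, and the genes were not tested against each other.

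A gene could have a high level in a single cell. Pcdhb9, named for its reads after they were seen, had 1391 reads in 5 cells, and 1 cell held 88.5% of them. For Pcdhb8 1 cell held 84.4%, for Pcdhb10 87.2%, and for Pcdhb12 the 330 reads in kept cells all came from 1 cell. For Pcdhb17 the highest cell held 34.2%. The thinned beta reads of cells with 5 or more ran from 5 through a median of 20 to 109 on plate 1 and from 5 through 21 to 297 on plate 2.

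As a background for single-gene detection, olfactory receptor genes, a large family used mainly in the nose, were read the same way. Of 1191 such genes 12 (1.01%) reached 5 reads in at least 1 thinned cell on plate 1 and 11 (0.924%) on plate 2, against 17 (77.3%) and 13 (59.1%) of the 22 beta genes. The mean over genes of the share of cells was 0.0806% and 0.0751% for the receptor genes, in which 1 gene alone reached 81.5% and 76.7% of cells, and 0.839% and 0.363% for the beta genes. The median receptor gene was at 0 on both plates.

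Where a cell did have several beta genes, they were not always neighbours. Without thinning, 8 of 77 cells had 2 or more beta genes at 5 or more reads, which made 14 pairs in cells. Of these 3 (21.4%) were pairs of adjacent genes, and 2 of the 3 were Pcdhb21 with Pcdhb22, which overlap. Of the 231 possible pairs 21 (9.09%) are adjacent. The widest pair was Pcdhb4 with Pcdhb19, with 128 and 6 reads in an mSC-like cell of plate 1, and another mSC-like cell of plate 1 had 39 reads of Pcdhb3, 61 of Pcdhb5 and 26 of Pcdhb7.

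Gene-specific reads gave a like picture for gamma. They made up 31.4% of the gamma reads of kept cells on plate 1 and 37.8% on plate 2. Of the cells with 5 or more constant-exon reads, 59 of 84 on plate 1 and 27 of 46 on plate 2 had no gene at 5 or more own reads, so the variable exon in use was not seen in most of them. Where a variable exon was seen, it was mostly 1. A single gene passed in 19 cells on plate 1 and 17 on plate 2, 2 genes in 5 and 2 cells, and the most was 3. With so few genes seen per cell most such cells would hold 1 in any case. A choice of 1 gamma gene per cell was not tested. Smart-Seq2 reads span the transcript, and the constant exons held many more reads per kilobase than any variable exon. They take reads from transcripts of all gamma genes, however, while a variable exon takes those of a single gene.

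**Figure D4:**
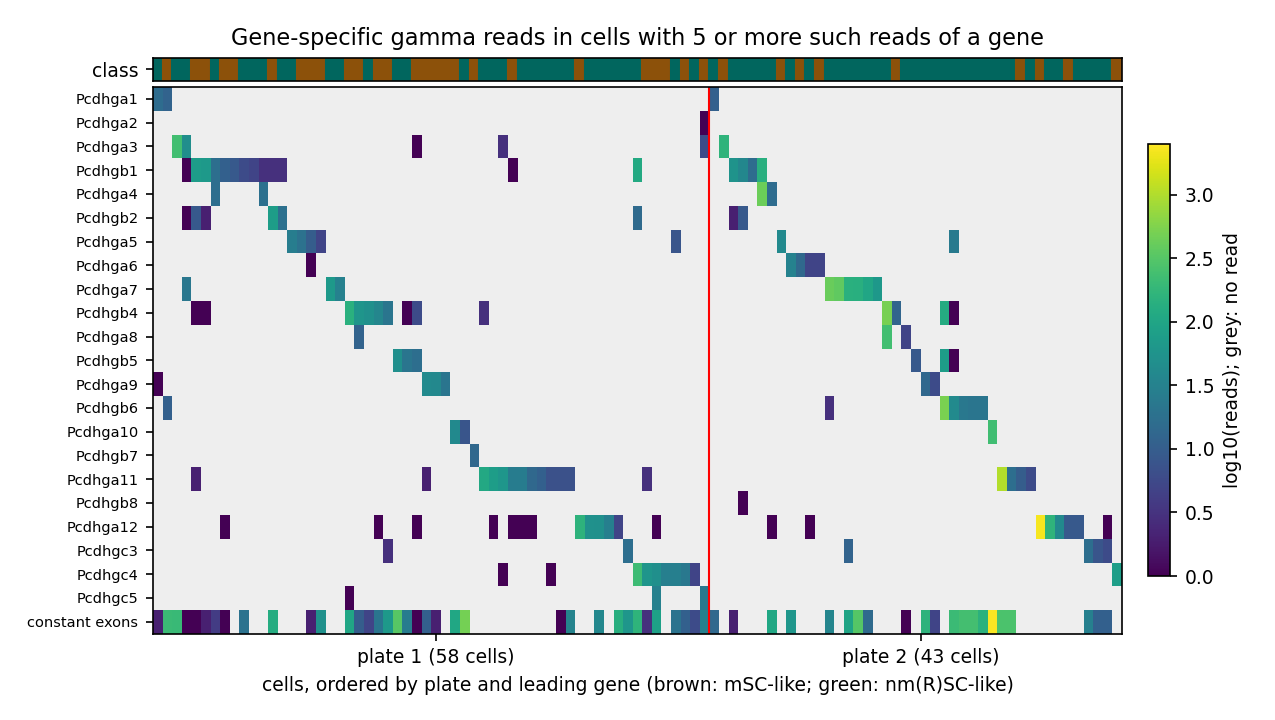
Gene-specific reads of the 22 gamma genes (rows, in genomic order) and constant-exon reads (last row) in the 101 kept cells with 5 or more gene-specific reads of a gene (columns, 58 of plate 1 and 43 of plate 2), on a log10 color scale with grey for no read and the class of each cell above (brown mSC-like, green nm(R)SC-like). Most cells have 1 leading gene, and 22 cells on each plate have no constant-exon read at all.

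The constant exons were missing from many cells that had a variable exon. Of 58 cells with 5 or more gene-specific reads on plate 1, 25 had 5 or more constant-exon reads and 22 had none. On plate 2 these numbers were 19 and 22 of 43. The cells without constant-exon reads were unevenly spread over the genes. They made up 10 of 14 cells for Pcdhga11 and 8 of 10 for Pcdhga12, but 0 of 5 for Pcdhgc3, 1 of 6 for Pcdhgb6 and 0 of 3 for Pcdhga10. In the annotation Gm26672, on the opposite strand, overlaps Pcdhga10, Pcdhgb7, Pcdhga11 and Pcdhga12. The method keeps no strand, so reads of Gm26672 cannot be told apart from reads of these genes, and its part was not tested. Pcdhga12 had a further pattern of its own, with an own read in 71 kept cells, of which 53 had exactly 1.

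The gamma genes in the largest shares of thinned cells were of A and B type. Pcdhgb4 (chr18:37720369-37841870) was present in 5 cells on plate 1 and 3 on plate 2. Pcdhga11 (chr18:37755731-37841873) was present in 6 cells and 1 cell, and Pcdhga7 (chr18:37714764-37841873) in 2 and 6. In the annotation an exon of Pcdhgb4 overlaps Pcdhga8, and Gm37165 lies opposite Pcdhga7 and Pcdhga8, so a part of these reads is uncertain. All 8 thinned cells with Pcdhga7 were nm(R)SC-like, while 5 of the 8 with Pcdhgb4 were mSC-like. These counts are too small to set the classes apart. By type, the 12 A genes held 51.3% of gene-specific reads on plate 1 and 77.5% on plate 2, the 7 B genes 31.2% and 20.9%, and the 3 C genes 17.5% and 1.62%. On plate 2, 1 mSC-like cell with 2284 reads of Pcdhga12 held 79.5% of that gene's reads in all kept cells.

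Of the C-type genes, which many neurons share, Pcdhac2 was the alpha gene with own reads, while those of gamma were not among its 3 leading genes. Pcdhac1 had no own read. Pcdhac2 reached 5 own reads in 4 thinned cells on plate 1 and 1 on plate 2, each of them nm(R)SC-like. Pcdhgc3 (chr18:37806364-37841873) was present in 1 thinned cell on plate 1 and 0 on plate 2, and had own reads in 16 kept cells, with BC037039 on the opposite strand. Pcdhgc4 (chr18:37815079-37841873), the C-type gene with the most own reads in gamma, was present in 3 cells and 1 cell, 2 of these 4 mSC-like. Pcdhgc5 (chr18:37819513-37841873) was present in 2 mSC-like cells on plate 1 and in none on plate 2. Unthinned, 4 cells of plate 1 and 1 of plate 2 had 5 or more own reads of Pcdhac2, and 2 and 1 of them also had 5 or more reads of the alpha constant exons.

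The clusters were found together in some cells, and the plates differed in this. On plate 1 gamma was present in 19 of 34 cells with a beta gene (55.9%) and in 24.5% of the cells without one. On plate 2 it was present in 1 of 25 cells with a beta gene and in 14.6% of the cells without. Alpha and gamma were found together in 4 of 9 alpha cells on plate 1 and in 1 of 4 on plate 2, and alpha and beta in 2 of 9 and 0 of 4. The plates differed in depth, in animals and in sequencing pool, which cannot be told apart.

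Other genes of the pathway were tested in the same way, in classes built without them. Of the 12 non-clustered protocadherins 8 were tested and 1 was called by edgeR, against 2.35% of all genes. DESeq2, which called 12.5% of all genes tested, called 4 of the 8. These were Pcdh7, Pcdh1 and Pcdh11x as lower and Pcdh18 as higher in mSC-like cells. Pcdh7, a delta protocadherin, was at 43.8 CPM on plate 1 and 9.64 CPM on plate 2 among mSC-like cells, and at 303.1 and 171.8 CPM among nm(R)SC-like cells. The plates of the classes did not overlap, and the log2 ratio was -3.32 ± 0.49 (edgeR adjusted p = 0.0331, and 0.116 without the block for plate). Pcdh9 was at 70.3 and 158.3 CPM against 244.0 and 255.0 CPM (log2 ratio -1.09 ± 0.38, edgeR adjusted p = 0.314) and did not pass. Pcdh18 was the only one of the 8 with a higher fitted level in mSC-like cells (log2 ratio 5.95 ± 3.10, edgeR adjusted p = 0.532) and did not pass in edgeR, while DESeq2 gave it an adjusted p of 0.00131. The median log2 ratio of the 8 was -3.29, against -0.08 over all genes tested. It does not measure a shift of the whole list, because some of the 8 were close to absent from a class. On plates 1 and 2 the mSC-like sums held Pcdh1 at 1.29 and 0.0314 CPM. Pcdh17 was at 0.225 and 0.0941 CPM there, and Pcdh20 at 0.0562 and 0.0314 CPM. Pcdh18, whose ratio has the other sign, was at 0.0208 CPM in the nm(R)SC-like sum of plate 2. The size of such ratios depends on the prior count.

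Of the 16 regulators of the clusters, such as Ctcf, the cohesin subunit Rad21 and the repressor Smchd1, all were tested, with a median log2 ratio of -0.09. In edgeR 0 were called, beside 2.35% of all genes. At an unadjusted p under 0.05 there was 1, with no share of all genes counted beside it. DESeq2 called 1, Dnmt1, as lower in mSC-like cells, beside 12.5% of all genes. Ctcf, which binds the promoters and enhancers of the clusters, was at 68.7 CPM (mSC-like) and 109.8 CPM (nm(R)SC-like) on plate 1 and at 41.0 and 27.8 CPM on plate 2, so its direction differed between the plates. Of 16 partners in signalling and processing 14 were tested and 1 was called by edgeR, again beside 2.35% of all genes. DESeq2 called this gene and also Wasf1 and Prkca, both higher in mSC-like cells, beside 12.5% of all genes. Marcks, an actin-binding substrate of protein kinase C, was at 260.4 and 119.4 CPM in the mSC-like sums of the plates against 1139 and 482.0 CPM in those of nm(R)SC-like cells (log2 ratio -1.92 ± 0.28, edgeR adjusted p = 0.0319, and 0.225 without the block). Adam10, the protease that sheds the protocadherin ectodomain, was at 595.7 and 451.5 against 351.7 and 357.9 CPM (log2 ratio 0.70 ± 0.29, edgeR adjusted p = 0.421) and did not pass. The receptor Ret was at 0 CPM in all 4 sums. The median log2 ratio of the 14 was 0.47.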

How the data were processed

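Single eYFP-positive SCs of postnatal day 60 were profiled by Smart-Seq2 on 2 plates of 384 cells. The authors deposited raw read counts per gene and cell, not normalized. Reads had been aligned with STAR and counted with featureCounts (STAR 2.6.1c and GRCm38.p5 per the labels' processing notes, while the study's methods name a human build). The strand setting was not given in the sources used here. All 768 columns matched a cell by title, and no pair of cells had the same counts. Depth ranged from 1025 to 4076083 reads per cell.

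Symbols, coordinates and exons came from GENCODE M21 (GRCm38), in which 25664 of 25700 identifiers were found. One symbol, Pcdha11, stood for 2 identifiers. Cells with 1500 or more genes were clustered after the study's settings (canonical correlation over the plates, Seurat 5.3.0) without 63 genes, the 58 members and 5 other genes of the locus. Clusters were named by marker lists. Doublets were not called, because each well had received 1 sorted cell. Since a gene that shapes a class cannot be tested fairly in it, the other genes were split at random into 2 parts and each part was tested in classes built from the other. These classes matched the main ones in 91.7% and 88.0% of cells. Counts were summed per plate and class, with identical alpha genes as 1 row, and the 4 sums entered the quasi-likelihood test of edgeR 4.0.16 (TMM factors, genes kept by filterByExpr at min.count 10, a block for plate, Benjamini-Hochberg adjustment over all genes tested, limit 0.05). The block pairs the classes because both came from the same mice and plate. Each standard error is the size of the log2 ratio over the root of F. The sums weigh cells by their reads, and the fit has few residual degrees of freedom. The test was checked on simulated counts. DESeq2 1.42.0 was an alternative. Shares used cells thinned once to 100000 reads, with the constant exons of a cluster counted once. The genes named were the 5 beta, 3 alpha and 3 gamma genes in the largest mean share of cells (gene-specific reads for alpha and gamma, where Pcdhac2 was the 1 alpha gene with any), the C-type genes, called genes of the related lists, and others said to be chosen after their values were seen or given as examples. Members and lists were chosen with earlier results of these data known.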

Additional observations from a re-analysis of the deposited data

Results flagged for a closer look

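Data outside the comparisons held some reads of the clusters. Of the 44 cells of plate 1 that were left out for having fewer than 1500 genes, 9 had a read of the gamma constant exons, and 0 had 5 or more. Of the 50 such cells of plate 2, 3 had a gamma read. No cell left out had an alpha read. A further 3 genes of the table, which are no members, run from alpha first exons to the gamma constant exons in the annotation. Gm42416 (chr18:36952741-37840200) had 2327 reads in 72 cells. Gm37013 (chr18:36969916-37833296) and Gm37388 (chr18:36975941-37833296) had 545 reads each, in 34 cells. In no cell did any of them exceed the gamma constant-exon value, and each cell that had reads of them also had reads of the gamma constant exons. Whether a transcript joins the clusters was not tested.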

How the results depend on the processing

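In the comparisons of classes, gamma and alpha stayed lower in mSC-like cells under each alternative and none passed the limit, with log2 ratios of -1.77 to -0.11 for gamma (adjusted p 0.539 to 0.976) and -7.70 to -2.98 for alpha (0.0538 to 0.854). For beta the ratio ran from -0.71 to 0.47 (0.794 to 0.999), and its direction turned with a minimum of 2500 genes per cell (0.47). Within 1 plate, with 1 CPM added, ratios were -2.41 and -1.82 for alpha, -0.29 and -0.16 for beta and -0.19 and -1.15 for gamma, with no test. Leaving out the highest cell of each class and plate was chosen after the data were seen. DESeq2 called 1 protocadherin row instead of 0 and 8 of the related genes instead of 2, and without the replicate block, which pairs the classes by plate, 0 of the related genes were called. DESeq2 called 1664 genes in all against 312 by edgeR, edgeR with DESeq2's size factors 413, edgeR without the block 126 and edgeR on thinned cells 605. The share of mSC-like cells with alpha, 0 at 5 thinned reads, was 0.490% at 1 read, 0.385% after thinning to 50000 reads, 0.340% at 50 CPM without thinning and 0.885% with 1000 genes per cell. The share of mSC-like cells with beta was 13.3% at 1 read and 13.7% with 2500 genes per cell, against 9.83%. By plate, shares ran from 7.89 to 11.8% for beta and 5.26 to 23.5% for gamma in mSC-like cells, and from 1.69 to 7.50% for alpha, 8.02 to 18.3% for beta and 16.5 to 34.2% for gamma in nm(R)SC-like cells, and mean beta genes from 0.0789 to 0.157 and from 0.0802 to 0.208. Gene-specific gamma reads ran from 31.4 to 37.8%. The cause of these moves was not tested. Of 126 values under alternatives that keep both plates, 116 kept their side of the limit or moved by less than 1 SD. This bar is loose, because the SD over 2 plates was wide. For gamma in mSC-like cells it was 12.9 percentage points for a share of 14.4%. That share was 23.6% at 1 read, which counted as a move of less than 1 SD. Each alpha share rests on fewer than 10 thinned cells.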
